A study of Mus musculus with 6 samples.

Results

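The small leucine-rich proteoglycans (SLRPs) were represented by 9 genes, Bgn, Dcn, Fmod, Lum, Ogn, Aspn, Prelp, Omd and Podn, out of 19057 genes with a probe on the array. They were taken by name as members of the family, and all 16 probes annotated to them, of 45281 on the array, were read on all 6 arrays by genotype and surgery. Left ventricles came from male c57/BL6 mice, wild type (WT) or with Kdm3a, which encodes a histone H3 lysine demethylase, knocked out in the whole animal (Kdm3a-KO, KO). The mice were 6 to 8 weeks old at transverse aortic constriction (TAC), a banding of the aorta that overloads the left ventricle, or at a sham operation, and hearts were taken 3 weeks later according to the sample labels. The study's text gives a later harvest for its array experiment and also mentions knockouts on a mixed background, so time and strain here are as labelled. There were 1 WT Sham array, 2 WT TAC arrays, 1 KO Sham array and 2 KO TAC arrays. The deleted part of Kdm3a is not given in the labels, and neither is whether the 2 arrays of a TAC group were separate animals, so p-values measure the spread between these arrays, which may be technical. Each array read the RNA of whole left ventricle, in which fewer cells of a type and less RNA per cell cannot be told apart.

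SLRPs are secreted matrix proteins built on a core of leucine-rich repeats, most of which carry chondroitin, dermatan or keratan sulfate chains. They bind collagen and regulate how fibrils assemble, and several bind growth factors such as TGF-β or act on cell-surface receptors when released from the matrix. In the heart they are made mainly by fibroblasts and are part of the interstitial matrix that is remodelled under pressure overload. By protein family, biglycan (Bgn), decorin (Dcn) and asporin (Aspn) belong to class I, fibromodulin (Fmod), lumican (Lum), prolargin (Prelp) and osteomodulin (Omd) to class II, osteoglycin (Ogn) to class III and podocan (Podn) to class V.

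The deposited intensities had been quantile normalized, and once sorted the 6 arrays were within 0.838% of each other. A probe was counted as above background on an array where it exceeded the 99th percentile of 1543 probes for olfactory, vomeronasal and taste receptors, which lay between 149.0 and 155.1. Between 14961 and 16015 probes per array passed that level, and the 16688 probes that did so on at least 2 arrays entered the test. The arrays split into the 2 of WT TAC and the other 4: on the first principal component, with 82.1% of the variance, they lay at 49.65 and 56.64, and the sham arrays and both KO TAC arrays lay between -27.52 and -25.41. As the check of the knockout, the Kdm3a probe ILMN_3118169 read 292.4 in WT Sham, 295.6 and 264.0 in WT TAC, 129.0 in KO Sham and 136.9 and 143.4 in KO TAC, above background on every WT array and on no KO array. It was lower in KO Sham than in WT Sham (2.27-fold in deposited intensity, limma adjusted p over probes = 0.0171), where 0.03% of probes were called lower. The other Kdm3a probes above background, ILMN_2707895 and ILMN_3043245, stayed above background in KO, between 361.5 and 394.1 and between 196.0 and 231.3.

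The bases before the start sites of 4 members are shown first because the results below set Bgn, Fmod and Prelp, which moved together, against Ogn, which did not. They are the 250 bases upstream of the RefSeq start site in build GRCm38.p6, written 5′ to 3′ in the direction of transcription: Bgn at chrX:73483351-73483600, plus strand, Fmod at chr1:134037004-134037253, plus strand, Prelp at chr1:133921402-133921651, minus strand, and Ogn at chr13:49607765-49608014, plus strand. Capitals mark matches, on either strand, to a TATA box (TATAAA), an AP-1 site (TGANTCA), a SMAD site (CAGAC), a GC box (GGGCGG) or a TEAD site (GGAATG).
Bgn: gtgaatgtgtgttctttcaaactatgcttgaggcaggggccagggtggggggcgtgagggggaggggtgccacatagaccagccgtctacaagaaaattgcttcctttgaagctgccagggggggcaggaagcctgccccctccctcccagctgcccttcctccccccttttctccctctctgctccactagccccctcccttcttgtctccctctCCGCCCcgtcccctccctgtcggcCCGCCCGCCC
Fmod: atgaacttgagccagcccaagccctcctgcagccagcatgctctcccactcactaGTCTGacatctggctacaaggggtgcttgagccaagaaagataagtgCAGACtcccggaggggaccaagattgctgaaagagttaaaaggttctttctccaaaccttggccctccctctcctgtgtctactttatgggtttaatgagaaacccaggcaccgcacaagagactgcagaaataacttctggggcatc
Prelp: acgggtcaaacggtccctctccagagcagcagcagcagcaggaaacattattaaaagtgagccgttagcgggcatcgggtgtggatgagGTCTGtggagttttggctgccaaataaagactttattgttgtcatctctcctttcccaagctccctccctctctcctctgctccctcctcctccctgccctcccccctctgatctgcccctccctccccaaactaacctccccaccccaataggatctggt
Ogn: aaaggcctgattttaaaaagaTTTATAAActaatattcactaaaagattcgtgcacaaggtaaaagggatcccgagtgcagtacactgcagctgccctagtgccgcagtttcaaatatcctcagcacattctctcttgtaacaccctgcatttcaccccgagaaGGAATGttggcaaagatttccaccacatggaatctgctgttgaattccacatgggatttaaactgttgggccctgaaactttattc
The Bgn window held 3 GC boxes, 2 of them overlapping at its end, and no other match. The Fmod window held 2 matches to the SMAD letters and the Prelp window 1. The Ogn window held a TATA box that reads on both strands, counted as 2 overlapping matches, and 1 TEAD match. Over the same 250 bases of 32851 RefSeq start sites, 32.7% held a GC box, 42.2% the SMAD letters, 12.4% a TATA box, 12.6% the TEAD letters and 6.75% the AP-1 letters. Among the other members with a sequence, Aspn held 2 TATA box matches, Podn 2 GC boxes at the first of its start sites, and Omd none of the motifs. No sequence was available for Dcn and Lum, so they were not searched. A match is a description of the letters only.

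In WT hearts, TAC went with higher levels of Bgn, Fmod, Prelp, Omd and Dcn. In KO hearts after TAC, the same 5 genes read close to their sham values and below WT TAC. Ogn and Lum did not differ between genotypes after TAC by the test, and Lum was the member with the largest difference between the sham hearts. Of the 8 members tested, 5 were higher in WT TAC than in WT Sham, where 15.3% of 9649 genes were called higher and 15.8% lower (limma, Benjamini-Hochberg adjusted p under 0.05 over all genes). In KO TAC against WT TAC, 5 of 8 were lower, where 19.5% of genes were called lower and 21.5% higher. These 2 comparisons share the WT TAC arrays, so their values are set side by side below and are not independent of each other. Fmod and Omd passed the filter on low values only because they were above background in WT TAC, so the counts describe the tested genes and are not a test of the family. Aspn passed on 1 array only and was not tested.

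**Figure D1:**
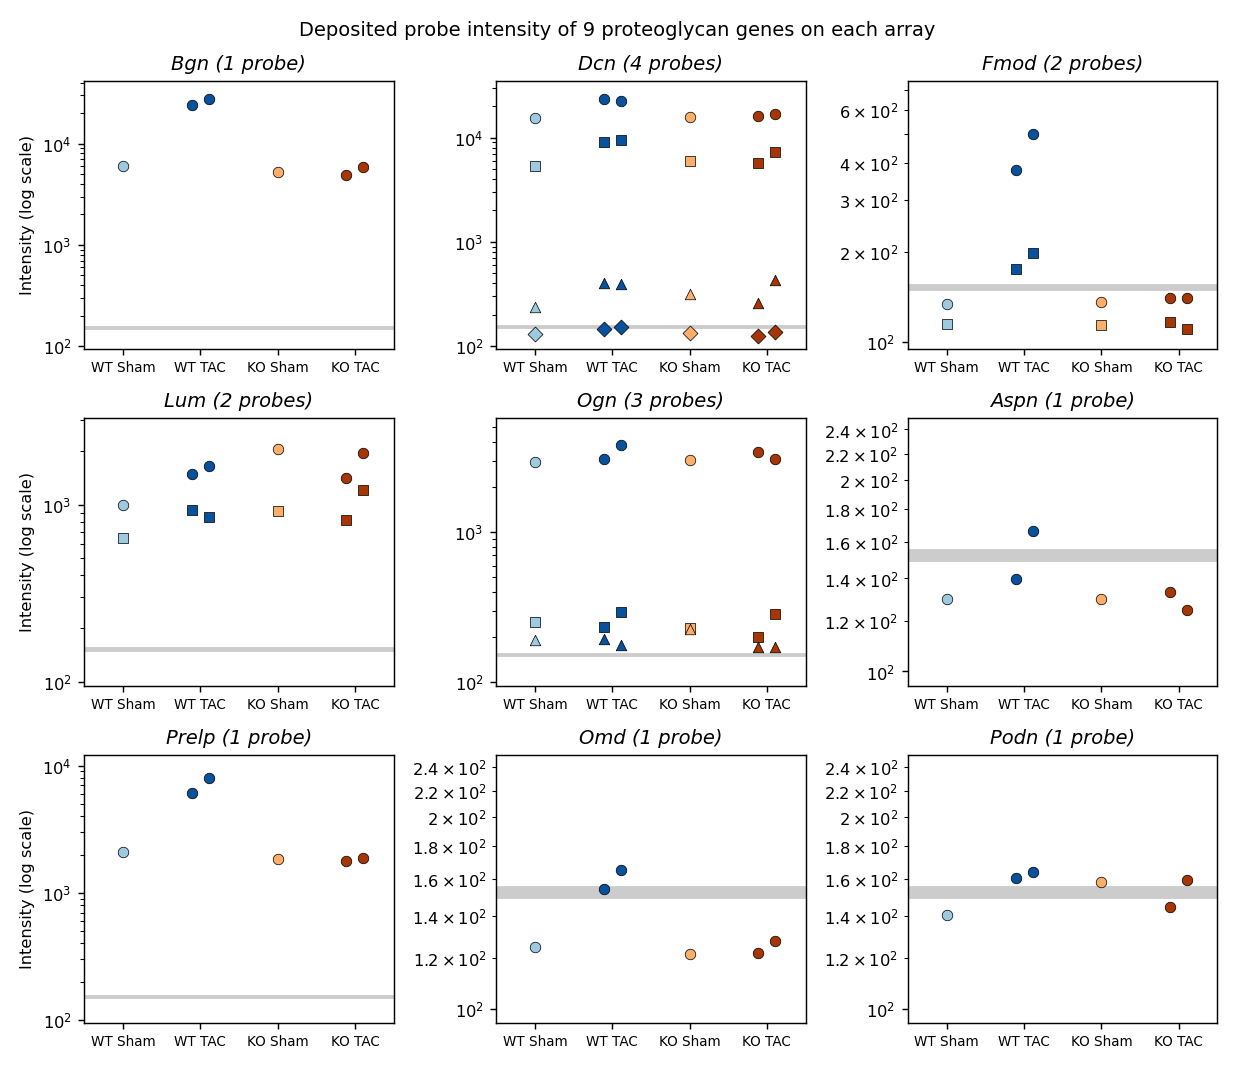
Deposited intensity (log scale, each panel with its own range) of every probe of the 9 genes on each of the 6 arrays, by group; marker shapes separate the probes of a gene, and the grey band is the range of the background level, 149.0 to 155.1. Bgn, Prelp and both Fmod probes are highest on the 2 WT TAC arrays, while Ogn lies at similar levels on all arrays.

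Bgn encodes biglycan, which binds collagen and, as a soluble protein, signals through Toll-like receptors 2 and 4 on macrophages. Its single probe read 6061 in WT Sham, 24287 and 27682 in WT TAC, 5266 in KO Sham, and 4935 and 5833 in KO TAC. Both WT TAC values lay far above all others, and the 2 KO TAC values fell on either side of the KO Sham value. The WT TAC mean was 25984 ± 2401 (SD, n = 2) and the KO TAC mean 5384 ± 635 (SD, n = 2). Bgn rose 4.34-fold in WT TAC over WT Sham (log2 2.12 ± 0.19 SE, limma adjusted p = 0.000823). After TAC, KO hearts held 4.91-fold less of it (log2 -2.30 ± 0.16 SE, limma adjusted p = 0.000174). Between KO TAC and KO Sham the log2 difference was 0.03, with a 95% interval from -0.43 to 0.48.

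Dcn encodes decorin, the other abundant class I member, which limits collagen fibril width and binds TGF-β. Its brightest probe, ILMN_2747959, read 15299 in WT Sham, 23214 and 22423 in WT TAC, 15893 in KO Sham, and 15973 and 16909 in KO TAC. WT TAC again lay above the other 4 arrays with no overlap, but by a much smaller ratio than for Bgn. Dcn rose 1.49-fold in WT TAC (log2 0.58 ± 0.16 SE, limma adjusted p = 0.0377) and after TAC was 1.39-fold lower in KO hearts (log2 -0.48 ± 0.13 SE, limma adjusted p = 0.0294). Leaving out either WT TAC array ended both calls (adjusted p from 0.105 to 0.120), and leaving out either KO TAC array ended the call between genotypes (adjusted p = 0.0981 and 0.0586). The 3 tested Dcn probes did not all give the same call. ILMN_2596346 read 5291 in WT Sham, 8987 and 9416 in WT TAC, 5967 in KO Sham, and 5653 and 7206 in KO TAC, and was called in both comparisons. The third probe, ILMN_2604695, read 237.6 in WT Sham, 400.5 and 396.5 in WT TAC, 318.1 in KO Sham, and 260.0 and 434.8 in KO TAC. On that probe the KO TAC arrays lay on both sides of WT TAC and no comparison was called. The fourth, ILMN_1254458, was above background on 1 WT TAC array only and was not tested.

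Aspn, whose product asporin competes with decorin for collagen and binds TGF-β, stood close to background throughout. Its probe read 129.8 in WT Sham, 139.7 and 166.5 in WT TAC, 129.9 in KO Sham, and 133.3 and 124.9 in KO TAC. It was above background on the second WT TAC array alone. In a fit without the filter on low values, over 19057 genes, it gave log2 -0.82 in KO TAC against WT TAC (limma adjusted p = 0.137) and 0.80 in WT TAC against WT Sham (adjusted p = 0.246).

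Fmod encodes fibromodulin, a keratan sulfate proteoglycan that binds collagen I and guides its cross-linking by lysyl oxidase. Its brighter probe, ILMN_2999762, read 134.1 in WT Sham, 378.9 and 500.5 in WT TAC, 135.7 in KO Sham, and 140.7 and 140.6 in KO TAC. Only WT TAC was above background, so the other groups hold an upper limit and not a level. In deposited intensity the WT TAC mean was 3.28-fold that of WT Sham and 3.13-fold that of KO TAC. After background correction, Fmod was at least 6.47-fold higher in WT TAC than in WT Sham (fitted log2 3.42 ± 0.24 SE, limma adjusted p = 0.000385). On the same scale it was at least 6.65-fold lower in KO TAC (fitted log2 -3.15 ± 0.20 SE, limma adjusted p = 0.000137). Such bounds, here and below, set the bright group's mean against the background level of the dim arrays on the corrected scale and hold only there: without background correction the fitted log2 differences were 1.70 and -1.63, both still called. The second probe, ILMN_1230020, read 114.8 in WT Sham, 176.1 and 199.3 in WT TAC, 114.3 in KO Sham, and 116.3 and 110.6 in KO TAC. It too was above background in WT TAC alone, at least 1.67-fold lower in KO TAC after correction (limma adjusted p over probes = 0.000394).

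Prelp encodes prolargin, whose basic amino-terminal region binds heparan sulfate, so that it can link collagen to basement membranes. The probe read 2076 in WT Sham, 6079 and 8043 in WT TAC, 1860 in KO Sham, and 1780 and 1884 in KO TAC. The KO arrays lay within a narrow range below WT Sham, and both WT TAC arrays lay well above. Prelp rose 3.49-fold in WT TAC (log2 1.80 ± 0.21 SE, limma adjusted p = 0.00201) and after TAC was 3.99-fold lower in KO hearts (log2 -1.995 ± 0.174 SE, limma adjusted p = 0.000415). In KO TAC against KO Sham its log2 difference was -0.02, with a 95% interval from -0.54 to 0.49.

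Omd encodes osteomodulin, also called osteoadherin, a keratan sulfate proteoglycan best known from bone matrix. Its probe read 124.8 in WT Sham, 154.3 and 165.4 in WT TAC, 121.8 in KO Sham, and 122.4 and 127.9 in KO TAC. WT TAC was just above background and all other arrays were below it. The fit called Omd in WT TAC against WT Sham (fitted log2 1.21 ± 0.20 SE, limma adjusted p = 0.00577) and in KO TAC against WT TAC (fitted log2 -1.20 ± 0.16 SE, limma adjusted p = 0.00192). Since the dim groups carry only a limit, the change on the corrected scale was at least 1.09-fold and at least 1.12-fold, respectively.

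Lum encodes lumican, a keratan sulfate proteoglycan that keeps collagen fibrils thin and evenly spaced. Its brighter probe, ILMN_3001540, read 998.9 in WT Sham, 1498 and 1644 in WT TAC, 2055 in KO Sham, and 1408 and 1969 in KO TAC. The KO Sham array was the highest and WT Sham the lowest, and the TAC groups overlapped. ILMN_2773259 read 647.2 in WT Sham, 928.8 and 855.7 in WT TAC, 919.5 in KO Sham, and 815.6 and 1206 in KO TAC, with WT Sham again the lowest. KO TAC against WT TAC gave log2 0.09 ± 0.20 SE, with a 95% interval from -0.38 to 0.56 (limma adjusted p = 0.745). In WT TAC against WT Sham the log2 difference was 0.71 ± 0.24 SE and missed the threshold (limma adjusted p = 0.0648), and the adjusted p was 0.0217 without either KO TAC array but 0.128 and 0.212 without the first or second WT TAC array. Between the 2 sham arrays Lum differed by log2 1.12 ± 0.28 SE, 2.18-fold, at an unadjusted p of 0.00556 in the limma fit and an adjusted p of 0.454; on the second probe the ratio was 1.501.

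Ogn encodes osteoglycin, or mimecan, a class III member of the cardiac matrix. The brightest probe, ILMN_2859613, read 2929 in WT Sham, 3077 and 3834 in WT TAC, 3008 in KO Sham, and 3432 and 3064 in KO TAC. The groups overlapped and no array stood apart. KO TAC against WT TAC gave log2 -0.09 ± 0.17 SE, with a 95% interval from -0.48 to 0.31 (limma adjusted p = 0.711), and WT TAC against WT Sham gave 0.24 ± 0.20 SE (limma adjusted p = 0.410). ILMN_2859619 ranged from 199.8 to 293.8 and was not called in any comparison. ILMN_2740622 ranged from 170.8 to 225.4, with its highest value in KO Sham. It gave log2 -0.84 ± 0.19 SE in KO TAC against KO Sham, at an unadjusted p of 0.00355 in the limma fit over probes and an adjusted p of 0.99989.

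Podn encodes podocan, a class V member described in the vessel wall, where it restrains smooth muscle growth in mice. It read 140.2 in WT Sham, 160.3 and 164.2 in WT TAC, 158.3 in KO Sham, and 144.3 and 159.1 in KO TAC. WT Sham and the first KO TAC array were below background and the other 4 just above it. WT Sham therefore holds a limit only, and WT TAC was at least 1.15-fold higher on the corrected scale. Without background correction that difference was log2 0.21 (limma adjusted p = 0.2035). WT TAC against WT Sham gave a fitted log2 of 0.67 ± 0.22 SE (limma adjusted p = 0.0593, or 0.0247 without either KO TAC array and 0.129 and 0.194 without the first or second WT TAC array), and KO TAC against WT TAC gave -0.30 ± 0.18 SE (limma adjusted p = 0.227).

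**Figure D2:**
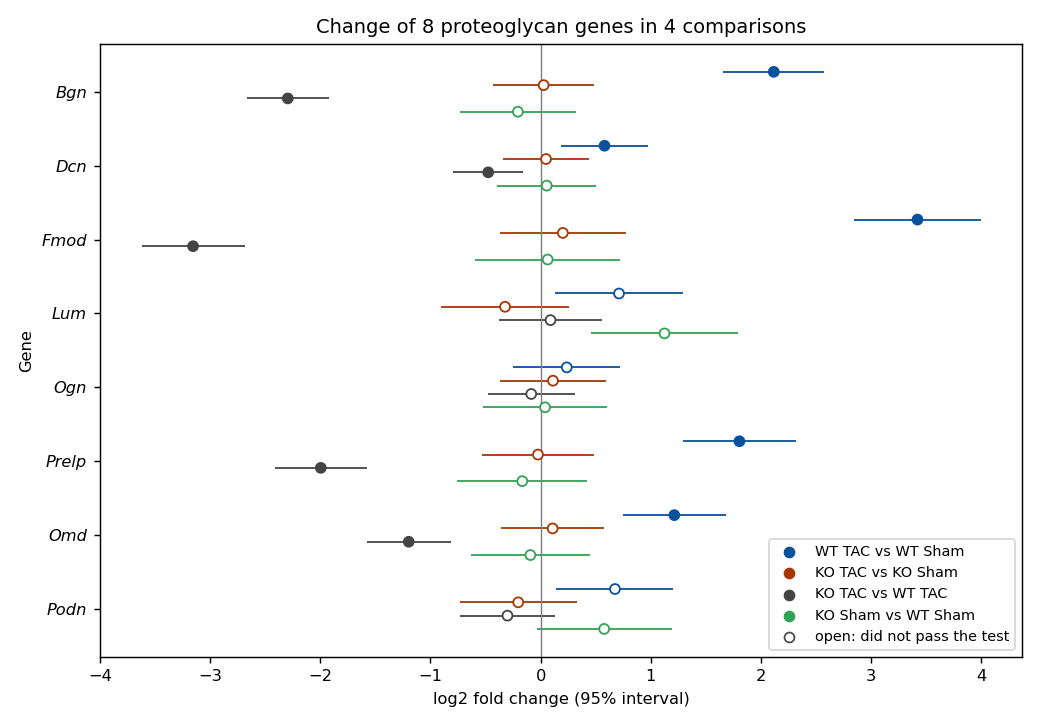
Fitted log2 fold change of the 8 tested genes in the 4 comparisons between groups, with 95% intervals from the limma fit; filled points had an adjusted p under 0.05, open points did not. The 5 genes called in WT TAC against WT Sham are also those called in KO TAC against WT TAC, which shares the WT TAC arrays, and no point is filled in either comparison with KO Sham.

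The next comparison asked whether TAC changed the SLRPs in knockout hearts. No member was called in KO TAC against KO Sham, and the percentage of all genes called there was 0. At an unadjusted p under 0.05 the limma fit held 253 of 9649 genes and 0 of the 8 members, and the smallest adjusted p over all genes was 0.999826. The log2 differences of the members above background in both groups ran from -0.32 ± 0.24 SE for Lum to 0.11 ± 0.20 SE for Ogn. Lum had a 95% interval from -0.90 to 0.25 and spanning 0. Fmod and Omd were below background in both groups and carry no fold.

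The test of the difference itself, the TAC effect in KO minus that in WT, called 4 of the 8 members lower, where 8.37% of genes were called lower and 5.62% higher. Fmod gave -3.22 ± 0.34 SE on the log2 scale (limma adjusted p = 0.00392), Bgn -2.09 ± 0.27 SE (adjusted p = 0.00654) and Prelp -1.83 ± 0.30 SE (adjusted p = 0.0131). Omd was near the threshold at -1.10 ± 0.28 SE (limma adjusted p = 0.0453) and missed it in the fit over probes (adjusted p = 0.0523) and without the first WT TAC, the second WT TAC or the first KO TAC array (adjusted p = 0.0637, 0.129 and 0.0669). Fmod and Omd were tested only because WT TAC was above background. Lum at -1.03 ± 0.34 SE (adjusted p = 0.0929), Podn at -0.88 ± 0.31 SE (adjusted p = 0.113), Dcn at -0.53 ± 0.23 SE (adjusted p = 0.170) and Ogn at -0.13 ± 0.29 SE (adjusted p = 0.802) did not pass. For Lum this difference took in the high KO Sham array as well as the WT TAC arrays.

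Between the sham hearts, 1 array against 1, none of the 8 members was called in the limma fit, where 0.0622% of genes were called. At an unadjusted p under 0.05 there was 1 member, Lum, and 769 genes in all. Bgn, Prelp and Dcn differed there by log2 -0.21 ± 0.22 SE, -0.17 ± 0.25 SE and 0.06 ± 0.19 SE. The spread behind these errors was taken from the TAC pairs, since each genotype had 1 sham array.

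**Figure D3:**
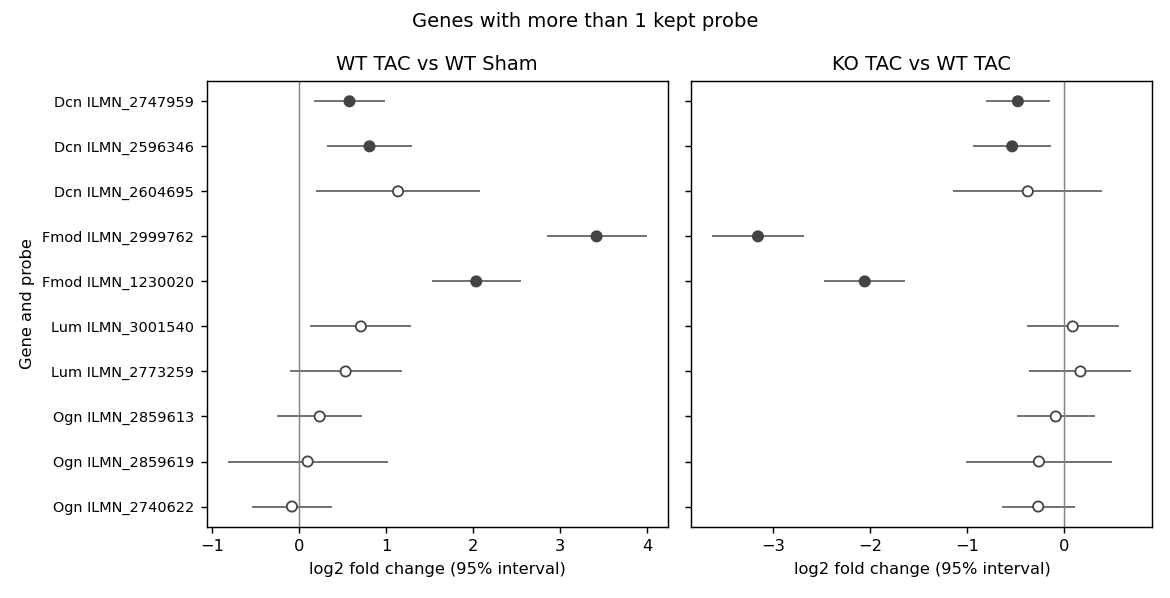
Fitted log2 fold change with 95% intervals for each tested probe of Dcn, Fmod, Lum and Ogn, in WT TAC against WT Sham (left) and KO TAC against WT TAC (right); filled points had an adjusted p under 0.05 over all tested probes. Both Fmod probes and 2 of 3 Dcn probes are called in each comparison, and no Lum or Ogn probe is.

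Across probes, 14 of the 16 passed the filter. In the limma fit over 16688 probes, 7 of the 14 were higher in WT TAC than in WT Sham, where 13.8% of probes were called higher, and 7 were lower in KO TAC against WT TAC, where 18.1% were called lower. These were the probes of Bgn, Prelp and Omd, both of Fmod and the 2 brightest of Dcn. The Fmod and Omd probes passed the filter only because they were above background in WT TAC, so these counts are not a test of the family. Probes of 1 gene share their target and are not replicates.

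Several members are neighbours in the genome, and differences between neighbours were not tested. Prelp and Fmod lie side by side on chromosome 1 and were both called in each of the comparisons with WT TAC, at log2 -1.995 and a fitted -3.15 in KO TAC against WT TAC. Beyond them, Optc, encoding the eye SLRP opticin, was below background on all 6 arrays. Dcn and Lum are adjacent on chromosome 10 and gave log2 -0.48 and 0.09 in KO TAC against WT TAC. In WT TAC against WT Sham they gave 0.58 and 0.71, of which Dcn alone was called. Btg1, an antiproliferative gene on the far side of Dcn, gave -0.998 ± 0.144 SE in KO TAC against WT TAC (limma adjusted p = 0.00257). On the other side Kera and Epyc, the keratocan and epiphycan genes, were below background on all 6 arrays. Ecm2, Aspn, Omd and Ogn follow each other on chromosome 13, where Omd, read near background, was called and Ogn was not. Ecm2 was above background on the second WT TAC array alone (167.6). Nearest beyond Ogn among the tested genes, Iars gave -0.23 ± 0.13 SE (limma adjusted p = 0.211), and beyond Ecm2, Cenpp gave 0.12 ± 0.15 SE (limma adjusted p = 0.548). In all, 7 further SLRP family genes had a probe (Kera, Epyc, Optc, Chad, Nyx, Podnl1 and Ecm2), and 0 of them were tested.

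Over the 6 arrays, the normalized log2 values of Bgn, Dcn, Fmod, Prelp and Omd had pairwise Pearson r between 0.958 and 0.996. Since these values split into the 2 WT TAC arrays and the other 4, r mostly restates that split and is given as a description. Lum had r between 0.00454 and 0.159 with these 5 genes and 0.797 with Podn. The genes outside the family with the highest r over the 6 arrays were Egr2 and Plpp3 for Bgn (both 0.999), Ptgis and Samd14 for Fmod (both over 0.999), Cela1 and Atp6v1h for Prelp (both 0.999), Slc30a1 (0.999) and Hivep3 (0.998) for Dcn, and Mtpn (0.999) and Inhba (0.998) for Omd. Those for Lum were Birc5 (0.986) and Myo1g (0.984), for Ogn Rps14 (0.982) and Dsel (0.974), and for Podn Csf2ra (0.994) and Adamts12 (0.993).

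The genes that SLRPs act with were read from lists of partners. As for Fmod and Omd, a gene below background outside WT TAC was tested only because of the WT TAC arrays. The counts are therefore a description and not a test. In KO TAC against WT TAC, 3 of 10 collagens and 2 of 10 proteases were below background in a group. So were 2 of 13 chondroitin and dermatan sulfate enzymes, 1 of 7 keratan sulfate enzymes and 2 of 6 other proteoglycans. No growth factor or receptor was. Beside the counts in these lists, 19.5% of all genes were called lower and 21.5% higher in KO TAC against WT TAC. In WT TAC against WT Sham, 15.3% of all genes were called higher and 15.8% lower. Among collagens that SLRPs bind, 8 of 10 tested genes rose in WT TAC and 8 were lower in KO TAC against WT TAC, with a median log2 of -1.36 in the latter against 0.04 over all genes. Col1a1 was 4.10-fold lower in KO TAC (limma adjusted p = 0.000489), Col1a2 13.0-fold lower (adjusted p = 0.000426) and Col5a2 at least 4.34-fold lower (adjusted p = 7.95e-05). These encode the chains of collagen I and of collagen V, which sets fibril diameter. Col1a2 read near background in the KO groups: KO Sham was below it, and KO TAC was at least 1.01-fold higher than KO Sham. The 13.0-fold difference therefore holds on the corrected scale only. The members themselves had a median of -0.84 as fitted, or -0.39 with Fmod and Omd at their bounds.

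Proteases that process or cleave SLRPs gave 8 lower and 1 higher of 10 tested in KO TAC against WT TAC (median log2 -1.40), beside 19.5% and 21.5% of all genes. They gave 7 higher with 0 lower in WT TAC against WT Sham, beside 15.3% and 15.8% of all genes. Bmp1, whose product removes the propeptides of biglycan, decorin and procollagens, was 2.75-fold lower in KO TAC (limma adjusted p = 0.000613). Adamts4, an aggrecanase, was below background in KO TAC, at least 11.6-fold lower (limma adjusted p = 2.44e-05), and Mmp2, gelatinase A, 3.34-fold lower (adjusted p = 0.00124). Mmp13, a collagenase, was at least 1.44-fold higher in KO TAC (limma adjusted p = 0.00181).

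Growth factors bound by SLRPs gave 6 lower and 1 higher of 9 in KO TAC against WT TAC (median log2 -1.78), beside 19.5% and 21.5% of all genes. They gave 6 higher and 1 lower in WT TAC against WT Sham, beside 15.3% and 15.8% of all genes. Tgfb2 was 6.38-fold lower in KO TAC, Bmp4 5.94-fold lower and Ccn2, connective tissue growth factor, 7.09-fold lower (limma adjusted p = 7.95e-05, 0.000200 and 6.38e-05). Pdgfb was 1.91-fold higher in KO TAC (limma adjusted p = 0.00655). Of the receptors through which soluble SLRPs act, 6 of 11 were lower in KO TAC and 0 higher (median log2 -0.56), and 6 rose in WT TAC. Cd14, the co-receptor of the Toll-like receptors that biglycan engages, was 20.7-fold lower in KO TAC (limma adjusted p = 1.54e-05), Cd44 3.57-fold lower (adjusted p = 0.000989) and Tlr2 2.19-fold lower (adjusted p = 0.00196).

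Of the enzymes that build the sulfated chains, those for chondroitin and dermatan sulfate were called at shares near those of all genes. Of 13 tested chondroitin and dermatan sulfate enzymes, 3 were higher (B3gat3, Chst7 and Chst15) and 3 lower (Chpf, Csgalnact1 and B3galt6) in KO TAC against WT TAC, beside 21.5% and 19.5% of all genes, with changes between 1.45-fold and 1.91-fold and a median log2 of -0.04. In WT TAC against WT Sham 2 were higher, Csgalnact1 and Chst12, beside 15.3% of all genes. Of 7 keratan sulfate enzymes, St3gal1 (2.86-fold, limma adjusted p = 0.00133) and B4galt4 (at least 1.59-fold, adjusted p = 0.00344) were lower and St3gal3 was 1.53-fold higher (adjusted p = 0.0269) in KO TAC. In WT TAC against WT Sham 2 were higher and 0 lower, with a median log2 of 0.42 against -0.07 over all genes. Other extracellular proteoglycans gave 4 lower of 6 tested in KO TAC, among them Vcan (versican, at least 2.48-fold), Srgn (serglycin, 1.92-fold) and Hspg2 (perlecan, 1.62-fold), and 3 higher in WT TAC.

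**Figure D4:**
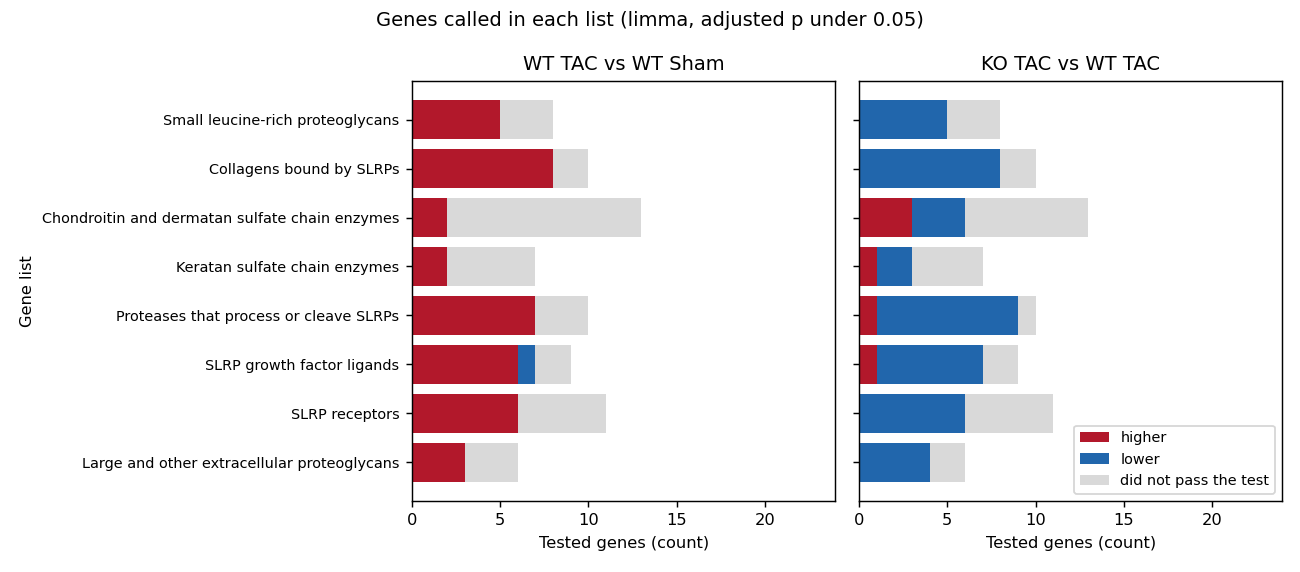
Number of tested genes in each list that were called higher or lower, or that did not pass the test (limma, adjusted p under 0.05 over 9649 genes), in WT TAC against WT Sham and in KO TAC against WT TAC. Collagens, proteases, growth factors and receptors hold mostly lower calls in KO TAC, and the chain enzymes hold calls in both directions.

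Markers of several cell types also differed between the groups, in both directions, and their part in these results was not tested. Their counts stand beside 19.5% of all genes called lower and 21.5% higher in KO TAC against WT TAC. In WT TAC against WT Sham, 15.3% of all genes were called higher and 15.8% lower. Of 11 tested fibroblast markers of 12, 5 were lower and 1 higher in KO TAC against WT TAC, with a median log2 of -0.04. Among them Meox1 was 5.89-fold lower, Pi16 3.21-fold lower and Scara5 10.9-fold higher, and Ddr2 did not pass the filter. Their summed intensity was 7481 in WT Sham, 14938 and 17592 in WT TAC, 8842 in KO Sham, and 8525 to 9026 in KO TAC. Of 5 tested markers of activated fibroblasts of 8, 3 were lower in KO TAC, led by Cthrc1 (at least 3.61-fold) and Postn (at least 2.53-fold). In that comparison 3 of the 5 were below background in a group and carry a limit only. Cilp, Ltbp2 and Thbs4 did not pass the filter. The sum of the 5 was 6763 in WT Sham, 8951 to 11575 in WT TAC, 6301 in KO Sham and 8434 to 11166 in KO TAC, so the TAC groups overlapped. The sum of 3 tested markers of valve, tendon and cartilage matrix was 892 in WT Sham, 11010 to 13612 in WT TAC, 925 in KO Sham and 940 to 950 in KO TAC, with Comp, which was 117-fold lower in KO TAC, at its head and the tendon genes Tnmd and Mkx under the filter. All 4 tested neutrophil markers were lower in KO TAC, their sum running from 7066 to 11742 in WT TAC and from 640 to 972 in the KO groups and 790 in WT Sham. In KO TAC against WT TAC, 2 of these 4 were below background in a group and carry a limit only. The filter favoured such genes where WT TAC was high, so their count is a description and not a test. Macrophage markers gave 1 lower and 1 higher of 9 tested in KO TAC against WT TAC (median log2 -0.02). In WT TAC against WT Sham 2 were higher and 0 lower. The sum of the 9 macrophage markers was 4505 in WT Sham, 8604 to 8960 in WT TAC and 5339 to 6632 in the KO groups. The sum of 9 cardiomyocyte markers lay between 173640 and 196498 on all arrays, lowest in WT TAC (173640 to 184177), with 3 markers higher and 1 lower in KO TAC against WT TAC and 2 lower in WT TAC against WT Sham (median log2 -0.45). All 9 were above the filter. The smooth muscle and pericyte sum was lowest in WT TAC, at 4858 in WT Sham, 3292 to 3358 in WT TAC, 4655 in KO Sham and 4497 to 5086 in KO TAC, with Abcc9 and Kcnj8 higher and Cspg4 lower in KO TAC of 7 tested. The endothelial sum was 16074 in WT Sham, 21540 to 23142 in WT TAC and 17891 to 18394 in the KO groups, with 3 of 9 tested markers higher and 3 lower in KO TAC. Of 3 tested atrial markers 2 were lower and 1 higher in KO TAC, with a sum of 2640 to 3042 in WT TAC and 1100 to 1380 on the other arrays. Of 3 tested erythroid markers 2 were lower in KO TAC, and their sum overlapped between WT TAC (37925 to 38369) and the other arrays (34273 to 40999). Immediate early and heat shock genes, which respond to sample handling, summed to 8053 in WT Sham, 12158 to 14498 in WT TAC and 3976 to 4883 in the KO groups.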

How the data were processed

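Total RNA from left ventricle was hybridised to Illumina mouse bead arrays, 1 array per sample, 6 in all. The authors deposited a table of probe intensity per array, exported from GenomeStudio 2011.1 per the submitters' processing notes and already quantile normalized; the log2 values used here were computed from these deposited intensities. A second, non-normalized table holds 6 columns of per-sample values whose headings were not tied to samples, and these were not used. Probe genes came from GEO's platform annotation: 34885 probes had 1 gene, 18 several and 10378 none, and symbols were updated through gene IDs (99.8% found in the reference).

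Background was corrected with the nec function of limma 3.58.1 (R 4.3.3), a normexp fit against 1543 receptor probes with offset 16, followed by log2 and quantile normalization. A probe was kept if on at least 2 of 6 arrays it exceeded the receptor probes' 99th percentile (16688 probes), and for each of 9649 genes the kept probe of highest mean stood for the gene. One limma fit with a mean per group gave all comparisons, with 2 residual degrees of freedom from the TAC pairs, 4.63 prior degrees of freedom and a prior SD of 0.157 on the log2 scale. P-values were adjusted by Benjamini-Hochberg over all genes, or over all kept probes, and called under 0.05. With only 6 arrays, their number limits the precision, and an exact permutation of 2 arrays against 2 cannot go below p = 0.333, so none was used. The fit was tested on simulated data before use.

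All 9 members are described with every probe. From each partner list, up to 3 genes in each direction with the smallest p in KO TAC against WT TAC were named (up to 2 from marker lists), with, for each tested member, the 2 other genes of highest Pearson r. Members and lists were chosen with earlier results of these data known. Alternatives varied the background correction, offset, normalization, filter, probe choice, variance model, replicate block and single arrays.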

Additional observations from a re-analysis of the deposited data

Results flagged for a closer look

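For 4 SLRPs the TAC effect differed between genotypes by the limma test of the difference itself. On the log2 scale, the effect in KO minus the effect in WT was -3.22 ± 0.34 SE for Fmod, -2.09 ± 0.27 SE for Bgn, -1.83 ± 0.30 SE for Prelp and -1.10 ± 0.28 SE for Omd. For Bgn and Prelp both WT TAC arrays lay above the WT Sham array by a wide margin while the KO TAC arrays lay close to KO Sham. For Fmod and Omd the KO arrays and WT Sham were below background, and both genes were tested only because WT TAC was above it. With no background correction the difference was -1.65 for Fmod and -0.32 for Omd, and with an offset of 50 it was -2.39 and -0.59. Omd kept its call in 3 of 11 alternatives, and with probes above background on all 6 arrays, which leaves out Fmod and Omd, Bgn and Prelp were the 2 members called of 5 tested. Each effect rests on 1 sham array.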

How the results depend on the processing

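No called result changed direction. Differences near 0 that were not called did change sign when 1 array was left out, among them Ogn (0.08 without the second WT TAC array) and Lum (-0.17 without the second KO TAC array) in KO TAC against WT TAC. With only probes above background on all 6 arrays, 5 members were tested and 3 were called in KO TAC against WT TAC, 3 in WT TAC against WT Sham and 2 in the difference of TAC effects. The methods' t-test after Benjamini-Hochberg called 0 members and 1 gene in all, with 5 members at an unadjusted p under 0.05. Leaving out each TAC array in turn gave 4 members in KO TAC against WT TAC each time, 4 to 7 in WT TAC against WT Sham, 3 to 6 in the difference, and 0 in both comparisons with KO Sham; the lone array left was assumed to vary like the other groups.

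The replicate block over the 4 TAC arrays could be fitted for KO TAC against WT TAC only, where it called the same 5 members and no further one, and 4069 genes in place of 3954; the numbers are only shared, since the deviations of same-numbered arrays correlated at r = 0.05 over 9649 genes. Among single members, 312 alternative values stayed on their side of the threshold, most of them never called, 12 lost a call and 5 gained one, with 145, 9 and 6 when an array was left out. The 312 include the 8 values from a fit of the 4 TAC arrays alone. That fit took its spread from the same TAC pairs and repeated the main fit, so it could not change a call. Dcn lost its genotype call with the mean of kept probes (adjusted p = 0.0936). Omd lost the difference call with no background correction, an offset of 50, no filter, or a trended variance (adjusted p from 0.0787 to 0.212). Lum was called in WT TAC against WT Sham with no background correction, an offset of 50 or a trended variance. With the trended variance, Dcn and Lum were also called in the difference (limma adjusted p = 0.0428 and 0.0426). A background level at the 95th percentile, chosen after seeing the data, ended the call of Dcn in WT TAC (adjusted p = 0.0516) and of Omd in the difference (0.0585).

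Over all genes, 1350 were called in the difference, 604 with no filter and 481 without the second WT TAC array; 3954 in KO TAC against WT TAC fell to 2110 and 2999 in WT TAC against WT Sham to 1427 without that array. KO Sham against WT Sham ran from 1 to 43 genes. KO TAC against KO Sham, with 0, had 10 without the second KO TAC array. Signals near background limit Fmod, Omd, Podn and Aspn.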
